A study of Mus musculus with 4 samples.

Results

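SHP binding was examined at 6 genes of the sterol pathway in mouse liver: Acat2, Hmgcs1, Fdft1 and Nsdhl, which encode enzymes of cholesterol synthesis, and Srebf1 and Insig2, which encode a regulator of lipid synthesis and a protein that holds SREBP back. The genes were taken by name, and a gene was counted when an SHP peak lay within 5 kb of its body in GENCODE M1, an annotation of mm9, the genome build of the peaks. GENCODE M1 holds 5 of the 6 genes and 22380 protein-coding genes in all. The rule assigned 2 of 1508 vehicle peaks and 3 of 3155 FGF19 peaks to them.

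The mice were wild-type C57BL/6 males aged 8 to 12 weeks. They were fasted for 12 h and given vehicle or FGF19 at 1 mg/kg by tail vein, and the liver was taken 2 h later. Chromatin of whole liver, with all of its cell types, was precipitated with an SHP antibody, and material from 3 mice was pooled into 1 ChIP library with 1 input library per group. There is therefore no replicate error, no difference between the groups was tested, and the intervals given below cover counting error only. The ChIP libraries held 15473647 tags with vehicle and 13444078 with FGF19 after duplicates were removed by the authors' peak caller.

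SHP has no DNA-binding domain of its own and reaches chromatin through other proteins, as a co-repressor. Cholesterol is made from acetyl-CoA through mevalonate, squalene and lanosterol, and the genes of this route are switched on by SREBP-2 when sterols are low. The SREBPs are held in the endoplasmic reticulum by INSIG proteins, which bind their escort SCAP when sterols are plentiful, and the freed SREBP fragment binds sterol regulatory elements (SREs), commonly beside sites for NF-Y and SP1. Acat2 here is the cytosolic acetoacetyl-CoA thiolase, not the sterol acyltransferase Soat2 that shares its protein name.

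The sequence before the start site is shown for the member with an SHP peak at a start site (Insig2), for the member that mm9 does not place on a chromosome (Hmgcs1), and for a member with no peak (Acat2). Each run is the 250 bases before the RefSeq start, 5′ to 3′ in the direction of the gene, from the RefSeq promoters of GRCm38.p6. Capitals mark matches on either strand to the SRE core TCACNCCAC with at most 1 mismatch, to the GC box CCGCCC of SP1 and to the NF-Y box CCAAT. Insig2 has other RefSeq promoters, and the one shown is that of transcript Insig2-002. Those of the starts at 123229166 and 123224255 held no SRE core by this measure. An FGF19 peak overlapped the 250 bases before the start at 123224255 as well, but not those before 123229166. That peak covers only the end of the Insig2 run shown, and its summit lies 81 bp downstream of the start of Insig2-002.

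Insig2: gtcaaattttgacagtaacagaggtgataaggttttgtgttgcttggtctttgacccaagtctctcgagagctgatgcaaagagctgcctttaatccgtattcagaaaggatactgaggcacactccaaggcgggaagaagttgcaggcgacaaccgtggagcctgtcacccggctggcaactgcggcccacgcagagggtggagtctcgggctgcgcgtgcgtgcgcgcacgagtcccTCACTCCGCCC
Hmgcs1: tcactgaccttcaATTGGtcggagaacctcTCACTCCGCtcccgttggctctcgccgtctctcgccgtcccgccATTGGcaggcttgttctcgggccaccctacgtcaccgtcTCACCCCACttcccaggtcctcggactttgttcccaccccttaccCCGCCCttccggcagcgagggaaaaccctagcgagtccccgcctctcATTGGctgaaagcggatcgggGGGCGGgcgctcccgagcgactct
Acat2: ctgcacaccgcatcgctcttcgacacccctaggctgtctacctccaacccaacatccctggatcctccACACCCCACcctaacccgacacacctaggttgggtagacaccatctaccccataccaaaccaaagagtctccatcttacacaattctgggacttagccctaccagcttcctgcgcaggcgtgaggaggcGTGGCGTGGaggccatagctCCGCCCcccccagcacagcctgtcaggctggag

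Both lists held a peak within 5 kb of the same 2 genes, Fdft1 and Insig2. Acat2, Nsdhl and Srebf1 had a peak in neither list. Of all protein-coding genes, 7.93% had a peak within 5 kb in the vehicle list, 16.3% in the FGF19 list, 4.31% in both and 80.1% in neither. No member had a peak with FGF19 alone by this rule, and 12% of all genes did. With so few members these counts give no estimate of a share. When the summit had to lie within 1 kb of a start site of the gene, Insig2 was the 1 member left, and with FGF19 only. The share of all genes that met that condition was 5.52% with vehicle and 12.5% with FGF19. Like Insig2, 9.91% of all genes met it with FGF19 only, and 2.94% met it with vehicle only.

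Hmgcs1 encodes the cytosolic synthase that makes HMG-CoA, the substrate from which mevalonate is formed. It could not be scored. GENCODE M1 has no gene of this name, and the 300-base RefSeq promoter, of which 250 bases are shown above, has 2 exact copies in the NCBIM37 (mm9) assembly. They lie on the unplaced sequences NT_110857, from 132387 to 132686, and NT_166323, from 112855 to 113154. The lists hold 0 peaks on unplaced sequence in either group. The lack of a peak is thus not a measurement of SHP at this gene. The promoter holds an SRE core without mismatch, TCACCCCAC, from 137 to 129 bases before the start, a copy with 1 mismatch, TCACTCCGC, 3 NF-Y boxes and 2 GC boxes. Of 32851 RefSeq promoters, 1.05% hold the SRE core without mismatch in these 250 bases and 20.7% hold it with at most 1.

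Fdft1 encodes squalene synthase, which joins farnesyl units in the first step committed to sterols. Its gene lies on the minus strand of chromosome 14 from 63763990 to 63796630. The vehicle peak ran from 63761207 to 63761850, and the FGF19 peak from 63761369 to 63761711 lay wholly inside it. Both lay past the 3′ end of Fdft1, by 2140 bp with vehicle and 2279 bp with FGF19, and their summits were 34900 bp and 35096 bp downstream of the Fdft1 start. The summits fell in the 3′ UTR of Ctsb, which encodes the lysosomal protease cathepsin B and is transcribed towards Fdft1 from the other strand. The nearest start site of a protein-coding gene was that of Ctsb, 20428 bp from the vehicle summit and 20232 bp from the FGF19 summit. The peak therefore met the 5 kb rule for Fdft1 but lay over an exon of its neighbour, and no peak of either list was found at the Fdft1 start.

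The pileup, the number of extended tags over the summit, was 22 at this peak with vehicle (Poisson 95% interval 13.8 to 33.3) and 19 with FGF19 (11.4 to 29.7). Scaled to 10000000 tags this was 14.2 and 14.1, a ratio of FGF19 to vehicle of 0.994 (95% interval 0.509 to 1.92). Fold enrichment, the pileup set against the local input, came to 7.65 in the vehicle list and 4.88 in the FGF19 list, which is -0.65 as a log2 ratio of FGF19 to vehicle. With tag extension scaled as well, the pileup ratio was 0.918. By depth-scaled pileup the peak was thus nearly as high in both libraries, and by fold enrichment it was lower with FGF19. The local input background that enters the fold enrichment was 2.00 tags with vehicle and 3.10 with FGF19. The summits lay 196 bp apart. Among the 695 pairs of overlapping peaks in the lists, 12.1% had a lower log2 ratio of fold enrichment, and the median was -0.02. By pileup per 10000000 tags, 26.3% of the pairs had a lower ratio.

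Insig2 encodes an INSIG protein of the endoplasmic reticulum that retains the complex of SCAP and SREBP. The gene lies on the minus strand of chromosome 1 from 123200930 to 123229166 and has 13 annotated transcripts. Of these, 7 start within 1 kb of the summit of an FGF19 peak inside the gene, Insig2-002 among them, and 2 start more than 4 kb upstream of that summit, at the 5′ end of the gene. SHP peaks lay at 2 places, over the 3′ UTR in both groups and over the inner start sites with FGF19.

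**Figure D1:**
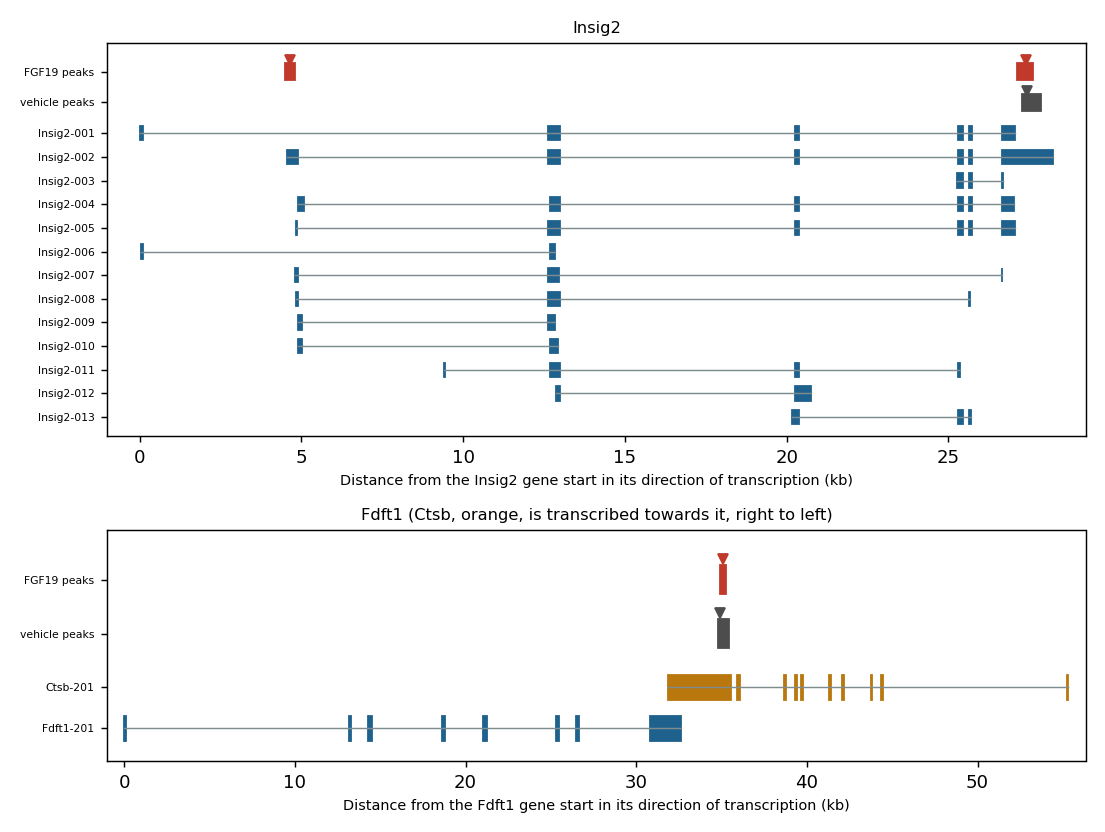
SHP peaks at Insig2 (top) and Fdft1 (bottom), with distance from the gene start in kb on the horizontal axis. Bars are peak intervals (red FGF19, grey vehicle), triangles are summits and boxes are exons of the named transcripts. At Insig2 the 3′ UTR is covered in both groups and the inner start sites with FGF19 only, where the summit is 4646 bp from the gene start. At Fdft1 both peaks lie past its end, in the last exon of Ctsb.

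The start-site peak of Insig2 was listed with FGF19 only. It ran on chromosome 1 from 123224363 to 123224683, with its summit at 123224520, in the 5′ UTR of transcript Insig2-002 and 81 bp downstream of the start of that transcript. Its interval held 2 annotated start sites. The pileup was 26 tags (17.0 to 38.1), over a local background of 8.51 tags. That background was 4.56 times the genome-wide expectation. The fold enrichment was 2.84, and 5.93% of the FGF19 list had a lower one, while by pileup 59.2% of the list was lower. The peak thus ranked near the bottom of the list by enrichment and above the middle by tags, at a place where the input was high.

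No vehicle peak overlapped this one. Scaled by tags and tag extension, the FGF19 pileup corresponded to 27.6 tags in the vehicle library (18.0 to 40.5, counting error in the FGF19 value only). At the same background relative to depth, a vehicle peak needed 24 tags to reach 4.75, the smallest -log10 p-value in the vehicle list. A vehicle pileup equal to that with FGF19 would have exceeded this number by a few tags only, and its counting interval reached below it. The vehicle pileup at this site was not analysed here, so a difference between the groups at the Insig2 start was not detectable from the lists. By -log10 q-value 12.7% of the FGF19 list was below the start-site peak of Insig2 and 39.8% below its 3′ UTR peak. With the FGF19 list shortened to the 1508 peaks of highest -log10 q-value, the length of the vehicle list, both FGF19 peaks of Insig2 were lost and Fdft1 was the 1 member left.

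**Figure D2:**
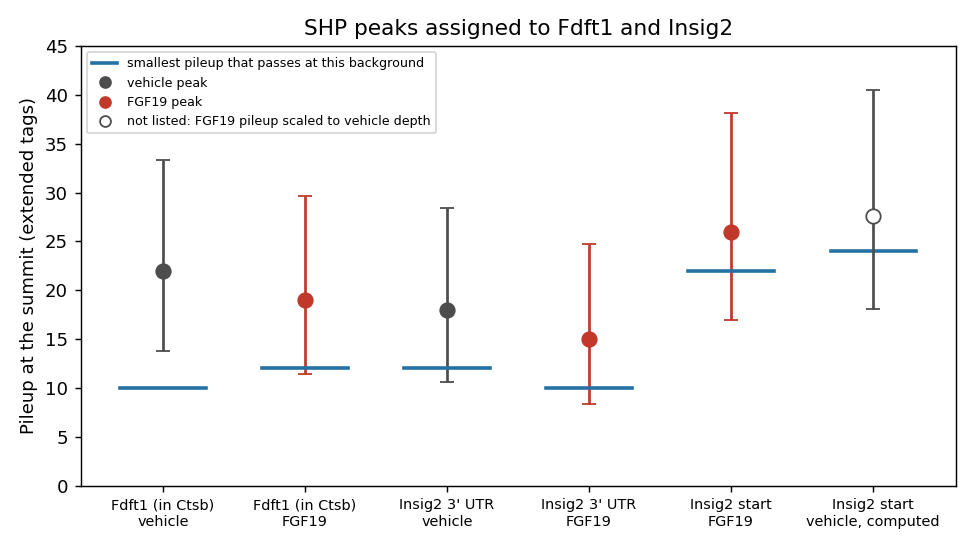
Pileup at the summit of each peak assigned to Fdft1 and Insig2, in extended tags. Filled points are listed peaks (grey vehicle, red FGF19) with Poisson 95% intervals. Blue lines mark the smallest pileup that reaches the smallest listed -log10 p-value at that peak's background. The open point is the FGF19 pileup of the Insig2 start, 26 tags, scaled to the vehicle depth. It sits at 27.6, just above the 24 tags needed, and its interval includes 24.

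The peak at the 3′ end of Insig2 was listed in both groups. The vehicle interval was 123201302 to 123201892 and the FGF19 interval 123201554 to 123202033, and the summits were 41 bp apart in the 3′ UTR. The pileup was 18 tags with vehicle (10.7 to 28.4) and 15 with FGF19 (8.40 to 24.7). Scaled to 10000000 tags it was 11.6 and 11.2, a ratio of 0.959 (0.450 to 2.02), and 22.2% of the pairs of overlapping peaks had a lower one. With tag extension scaled as well, the pileup ratio of this peak was 0.885. Its fold enrichment was likewise 4.87 against 4.82, or -0.02 as a log2 ratio of FGF19 to vehicle. These values are close, but the interval of the pileup ratio is wide, and a change in either direction of up to about 2-fold lies within counting error.

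Of the 5 peaks at these genes, 4 had their summit in a 3′ UTR and all 4 belonged to pairs found in both groups. They are the Ctsb peak near Fdft1 and the Insig2 3′ UTR peak, each counted in both lists. Summits in a 3′ UTR and farther than 1 kb from a start site made up 8.36% of vehicle peaks and 3.90% of FGF19 peaks. Of the vehicle peaks overlapped by an FGF19 peak they were 12.5% (Wilson 95% interval 10.3 to 15.2). Of the vehicle-only peaks they were 4.87% (3.59 to 6.56). In the FGF19 list the values were 12.1% (9.85 to 14.7) and 1.62% (1.19 to 2.20). Of the 964 genes with a peak within 5 kb in both lists, 25.1% had no summit within 1 kb of a start site in either list, as at Fdft1. In 9.75% of them such a summit was found with FGF19 alone, as at Insig2.

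**Figure D3:**
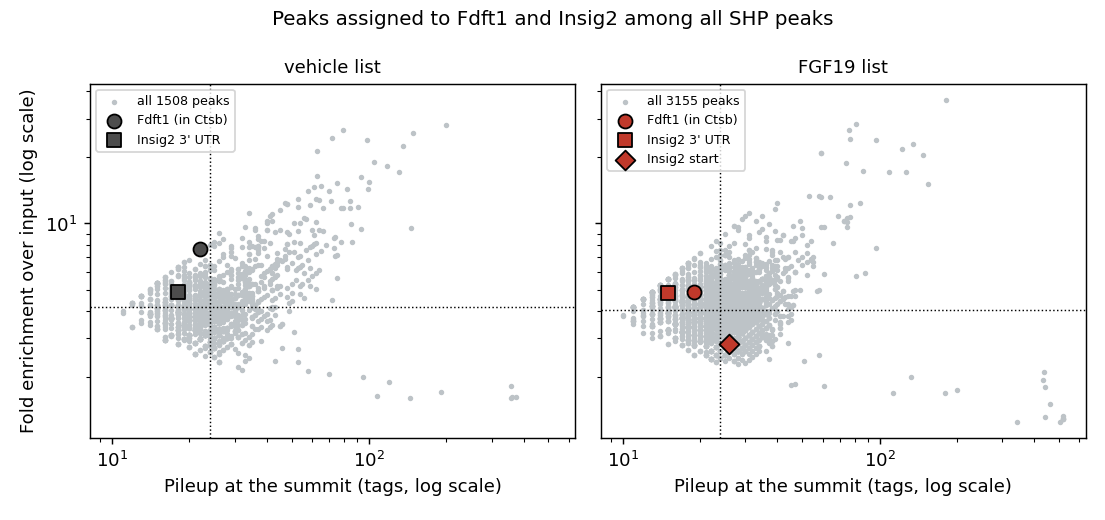
Fold enrichment against pileup for all peaks of the vehicle list (left) and the FGF19 list (right), both axes logarithmic. Dotted lines are the medians of each list, and large symbols are the peaks assigned to Fdft1 and Insig2. The 4 peaks in 3′ UTRs lie above the median enrichment and below the median pileup of 24 tags, and the start-site peak of Insig2 lies on the opposite side of both lines.

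The 3′ UTR peaks and the start-site peak also differed in rank by these measures. At the Fdft1 neighbour, 93.2% of vehicle peaks and 78.7% of FGF19 peaks had a lower fold enrichment, while 34.8% and 18.4% had a lower pileup. For the 3′ UTR of Insig2 the shares were 72.2% and 77.6% by fold enrichment and 12.9% and 4.34% by pileup. These peaks rested on few tags over a low background, between 1.01 and 1.66 times the genome-wide expectation.

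The 5 peaks were searched on both strands, within 100 bp of the summit, for 7 motifs: the SRE core, the GC box, the NF-Y box, the YY1 core AANATGGC, the E-box CACGTG, the NRF1 core GCGCANGC and the nuclear receptor sequence AGGTCA. These letters say where a match lies, not whether a factor was bound. Both FGF19 peaks of Insig2 held a match to the SRE core. In the 3′ UTR it was the core without mismatch, TCACCCCAC, 58 bp from the FGF19 summit at chr1:123201839-123201847. It is shown with 10 bases on either side, in the direction of the gene, with the core in capitals.

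Insig2 3′ UTR: gttatcaacaTCACCCCACtttgagtcta

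The core without mismatch lay within 100 bp of 16 of 3155 FGF19 summits (0.507%) and 8 of 1508 vehicle summits (0.531%), and in 0.746% of windows of the same length around the start of protein-coding genes. It was not within 100 bp of the vehicle summit of the same peak, but was within 150 bp. At the start-site peak the match was TCACTCCGC, with 1 mismatch, 84 bp from the summit at chr1:123224604-123224612 and from 11 to 3 bases before the start of Insig2-002. It overlaps a GC box at the end of the run shown above. The same 9 bases occur in the Hmgcs1 promoter shown above. A core with at most 1 mismatch was in 15.0% of FGF19 peaks, 14.3% of vehicle peaks and 16.7% of start-site windows, and thus not more often in peaks than in start-site windows. The vehicle summit in Ctsb had 2 NF-Y boxes within 100 bp, a motif present at 23.5% of vehicle peaks, and the FGF19 summit there had none of the 7 motifs. The vehicle summit in the Insig2 3′ UTR had 1 AGGTCA, present at 9.08% of vehicle peaks. Within 150 bp the FGF19 summit in Ctsb had 1 NF-Y box, and that in the Insig2 3′ UTR had 1 AGGTCA.

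Srebf1 encodes SREBP-1, whose forms arise from separate start sites. SREBP-1c acts on fatty acid synthesis, and SREBP-1a on genes of both fat and sterol synthesis. Srebf1 lies on chromosome 11 from 60012591 to 60036083 and had no peak in either list. The nearest was 709 kb away with vehicle and 93.7 kb away with FGF19. None of its 3 RefSeq promoters held the SRE core with at most 1 mismatch in the 250 bases before the start. In order from the 5′ end of the gene they held 0, 2 and 2 GC boxes and 1, 0 and 1 NF-Y boxes.

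Nsdhl encodes a sterol dehydrogenase that helps to remove methyl groups on the way from lanosterol to cholesterol. Its nearest peaks, on chromosome X, were 1008 kb from the gene in both groups. Its promoter held 1 SRE core with 1 mismatch, 1 GC box and 2 NF-Y boxes, and lies beside the start of Cetn2, which encodes a centrin. Acat2, whose product condenses acetyl-CoA into acetoacetyl-CoA, lies on chromosome 17 from 13135756 to 13153613. The nearest peak was 26.3 kb away with FGF19 and 267 kb away with vehicle. Its promoter, shown above, held 2 SRE cores with 1 mismatch and a GC box.

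A gene without a listed peak can still have had signal below the cutoff. The genome-wide background was 1.99 tags with vehicle and 1.87 with FGF19. There a summit needed at least 10 and 9 tags by p-value, or 5.04 and 4.81 times the expectation. The lowest pileups in the lists were 11 and 10 tags. Where the input was 4 times the expectation, at least 22 and 20 tags were needed. SHP signal at Acat2, Nsdhl and Srebf1 under these levels was not detectable.

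The other genes of the pathway were read by the same rule. This list of 31 genes was drawn up from the pathway and includes genes that the study displayed from these libraries, so its counts are not independent evidence. A peak within 5 kb was found at 6 of the 31 genes with vehicle (19.4%) and at 12 with FGF19 (38.7%), against 7.93% and 16.3% of all genes. It was in both lists at 2 genes, with FGF19 only at 10 and with vehicle only at 4. By comparison 12% of all genes were listed with FGF19 only and 3.62% with vehicle only. With the FGF19 list shortened to 1508 peaks, 6 of the 31 genes had an FGF19 peak, as many as with vehicle. Of the 31 genes, 5 then had one with FGF19 only. The shares of all genes given here are for the full lists, not for the shortened one.

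By step of the pathway the counts were small, and differences between the steps were not tested. Of the 6 enzymes from mevalonate to squalene, Idi1 and Ggps1 had a peak with FGF19 only, Mvd with vehicle only, and Mvk, Pmvk and Fdps in neither list. Of 10 from squalene to cholesterol, 5 had a peak with FGF19 only and 2 with vehicle only. With FGF19 these were Cyp51 (fold enrichment 5.58), Lbr, Sc4mol and Dhcr7, all within 1 kb of a start site, and Tm7sf2. The Tm7sf2 summit lay 5900 bp from its start, in the 5′ UTR of Znhit2-ps. With vehicle they were Sc5d, with its summit 8853 bp from its start, and the lanosterol synthase gene Lss. The Lss peak, 31 bp before its start, had a fold enrichment of 6.22 and no FGF19 counterpart. Of the 5 genes for SREBP and the proteins that process it, 4 had a peak with FGF19, all within 1 kb of a start site, and the protease gene Mbtps1 had one in both lists. For esterification and transport 1 of 10 genes had a peak with FGF19 (Scarb1) and 2 with vehicle (Npc2 and Scarb1). Insig2 was thus listed at a start site with FGF19 only, as Insig1 was, whose pileup was 35 tags and fold enrichment 3.25. The -log10 q-value was 5.62 at Insig1 and 2.92 at the Insig2 start, where a difference between the groups was not detectable. At Insig1 and the other genes listed in 1 group only, the pileup of the other group was not analysed. Their absence from a list is thus not a measured difference either.

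**Figure D4:**
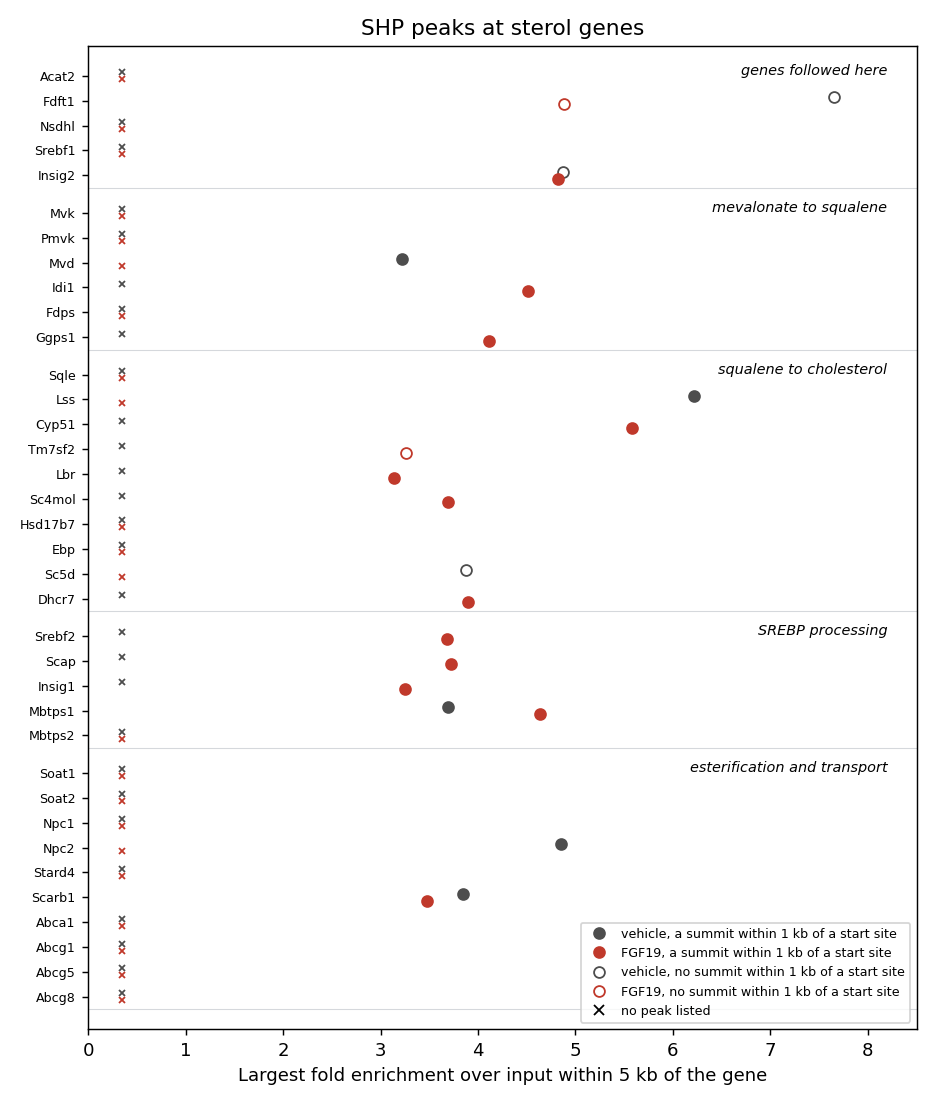
Largest fold enrichment within 5 kb of each sterol gene in the vehicle (grey) and FGF19 (red) lists, on a linear axis from 0. Points are filled where any peak of that list at the gene has its summit within 1 kb of a start site and open where none has, and crosses at the left mark genes with no listed peak. Of the 5 genes followed here only Insig2 has a filled point, with FGF19, and its largest enrichment comes from the 3′ UTR peak.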

How the data were processed

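Reads were aligned by the authors to mm9 with Bowtie 1.0.0 (at most 2 mismatches). MACS2 2.0.10.20130501, run by the authors for each group with that group's input as control, gave the peaks at a q-value cutoff of 0.05, and 1 tag was kept at each position of a strand. Versions are from the submitters' processing notes. The signal deposited for a peak is its pileup, the extended tags over the summit, which was left unscaled because the ChIP library was the smaller of its pair. The fold enrichment in the deposited lists is the ratio of pileup + 1 to background + 1, which gave back the background. Significance was deposited as -log10 p-value and as -log10 q-value. The p-values were recomputed as Poisson tails from pileup and background (largest difference 0.000179 on the -log10 scale), and the same formula gave the pileup needed at other backgrounds. Tags had been extended to 240 bp in the vehicle library and to 260 bp in the other. Poisson, Wilson and exact binomial 95% intervals cover counting error only.

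The members and lists were chosen with earlier results of these data known. All members were named, with genes that share their peaks and listed genes of the pathway. Some genes of the pathway are not reported here, and counts of listed genes leave them out. The functions gave the planted answer in 18 of 18 checks on simulated data. The alternatives concerned distance, cutoff, list length, gene assignment, measure of binding and motif window. Calculations used Python 3.11.15 with scipy 1.17.1, numpy 2.4.6, pandas 2.3.3, pyfaidx 0.9.0.4 and, for plots, matplotlib 3.10.9.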

Additional observations from a re-analysis of the deposited data

How the results depend on the processing

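The assignment of a peak to Fdft1 depends on distance. With peaks within 1 kb of the gene body, peaks overlapping it, or each peak given to the protein-coding gene with the nearest start site, 1 member, Insig2, had a peak in each list, in place of 2. With the FGF19 list shortened to the length of the vehicle list, 1 member, Fdft1, had an FGF19 peak, both peaks of Insig2 were lost, and the other sterol genes fell to 6 with an FGF19 peak and 5 with FGF19 only. With summits at most 100 bp apart, 1 member had a peak common to both lists. Within 150 bp of the summit there were 11 matches of a motif to a member peak, in place of 5. At 10 kb and at a q-value of at most 0.01 the counts of members were the same. The log2 ratio at the common peaks ranged from -0.65 by fold enrichment to -0.01 by depth-scaled pileup at Fdft1. At Insig2 it ranged from -0.02 to -0.26, and the depth-scaled pileup ratios differ from 1 by less than counting error. Scaling by the genome-wide expectation was chosen after seeing the data. No paired analysis was possible because each group is 1 pooled library.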
